A study of Rattus norvegicus with 12 samples.

Results

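Sox2, Sox4, Sox10 and Sox11, genes of the SOX family of transcription factors, were followed across 6 rat cell lines and cultures measured on 12 single-colour Affymetrix arrays. The genes were chosen by name: every probe set, a group of short probes read as 1 signal, was taken if its single gene symbol in the platform's table was Sox2, Sox4, Sox9, Sox10 or Sox11. Of the 5 genes named, 4 were found, among 14218 genes in all. They have 13 probe sets, of which Sox4 has 7, Sox2 has 4, and Sox10 and Sox11 have 1 each. Sox9 had no probe set under this rule and was not analysed here.

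The series set rat induced pluripotent stem (iPS) cells beside embryonic stem (ES) cells and embryonic fibroblasts (EF), to ask how far the expression profile of the iPS cells resembled that of ES cells. A1 and A2 are iPS lines of the FHH rat strain, taken 5 days after passage. DAC2 and DAC8 are labelled as ES lines, also 5 days after passage, and their strain is not given. REF1 and REF2 are labelled as FHH embryonic fibroblasts from e14.5 embryos, taken 6 days after passage. Per the labels' protocols the ES and iPS cells were kept in 2i medium and the fibroblasts in MEF medium, while the growth protocol places the iPS lines on Mitomycin C-treated mouse fibroblasts in a serum-replacement medium with LIF. Whether feeder cells were removed before RNA extraction is not stated, and no reprogramming factors are named in the sample labels. Each line has 2 arrays. Nothing says that these came from separate cultures, so p-values measure the spread between 2 arrays of a line, which may be technical.

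The arrays of 2 lines went against their labels, and the differences between lines below rest on the lines as named. Tests of the cell types as labelled are given apart from these. The filter on low signals used means of the labelled cell types, which average DAC2 with DAC8 and REF2 with REF1. The 2 arrays labelled DAC8, an ES line, had all 11 measured fibroblast markers at or above a log2 signal of 5, with a median of 12.32, close to the 12.88 of REF1. DAC2 had 1 of the 11 at that level and a median of 3.75. The 2 arrays labelled REF2, a fibroblast culture, had none of the 11 at that level, and all 9 measured ES markers reached it with a median of 10.43, beside 10.82 in DAC2. Over the 10510 genes kept for testing, DAC8 correlated with REF1 at r = 0.988 and DAC2 with REF2 at r = 0.974, while DAC2 correlated with DAC8 at r = 0.614. The iPS lines A1 and A2 had medians of 4.77 and 4.82 for the ES markers, with 2 and 3 of the 9 at or above 5. Their neuronal and neural progenitor markers had medians of 9.95 and 10.03, and 11 of the 12 reached 5 in both lines. Array medians lay between 5.28 and 5.41, and the 2 arrays of a line correlated at 0.996 to 0.998. The actin 3′ minus 5′ signal, a sign of RNA quality, was 0.84 to 1.05 in the iPS lines, DAC2 and REF2 and 0.42 to 0.52 in DAC8 and REF1, and its part in the results was not tested. No labels were exchanged here.

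SOX proteins bind DNA through a shared HMG domain that bends the helix, and they act with partner factors that differ between cell types. Sox2 belongs to the SOXB1 group and works in pluripotent cells and in neural progenitors. Sox4 and Sox11 form the SOXC group, known from neuronal differentiation and from mesenchyme, and Sox10 belongs to the SOXE group, which acts in neural crest, glia and melanocytes.

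Promoter sequences from RefSeq (build GRCr8) matched 2 of the 4 genes. They are shown because Sox2 and Sox11, described next, were high in different lines. Each covers the 250 bases before the annotated start, 5′ to 3′ on the gene's strand, with a CCAAT box read in the opposite orientation (ATTGG) in capitals. Sox2 lies at chr2:119464881-119465130 on the plus strand and Sox11 at chr6:49738795-49739044 on the minus strand.
Sox2: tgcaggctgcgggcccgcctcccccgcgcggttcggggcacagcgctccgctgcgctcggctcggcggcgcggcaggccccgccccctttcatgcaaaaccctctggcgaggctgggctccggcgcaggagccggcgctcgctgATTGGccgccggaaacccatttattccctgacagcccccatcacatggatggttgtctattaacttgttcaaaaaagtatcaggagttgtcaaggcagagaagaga
Sox11: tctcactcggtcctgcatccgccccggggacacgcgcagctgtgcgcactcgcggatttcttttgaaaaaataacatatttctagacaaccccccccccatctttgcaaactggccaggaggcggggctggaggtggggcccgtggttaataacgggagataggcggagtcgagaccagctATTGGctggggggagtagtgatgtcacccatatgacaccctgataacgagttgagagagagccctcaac
The Sox2 window held 23 CpG sites, more than 87.7% of the promoters in the table, and the Sox11 window held 14, more than 72.4% of them. The motif lies 106 bases before the start in Sox2 and 69 in Sox11. On either strand it was found in 34% of 33469 promoters of this length, so its presence in both is a description only.

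Sox2 was high in DAC2 and REF2, intermediate in both iPS lines and low in DAC8 and REF1. Sox4 was high in the iPS lines, DAC8 and REF1, lower in REF2 and lowest in DAC2. Sox11 was highest in the iPS lines, intermediate in DAC8 and REF1 and low in DAC2 and REF2. Sox10 was dim everywhere and stood above a log2 signal of 5 in DAC8 and REF1 alone among the 6 lines. These RNA samples are of bulk cultures, in which fewer cells expressing a gene and less RNA per cell cannot be told apart.

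**Figure D1:**
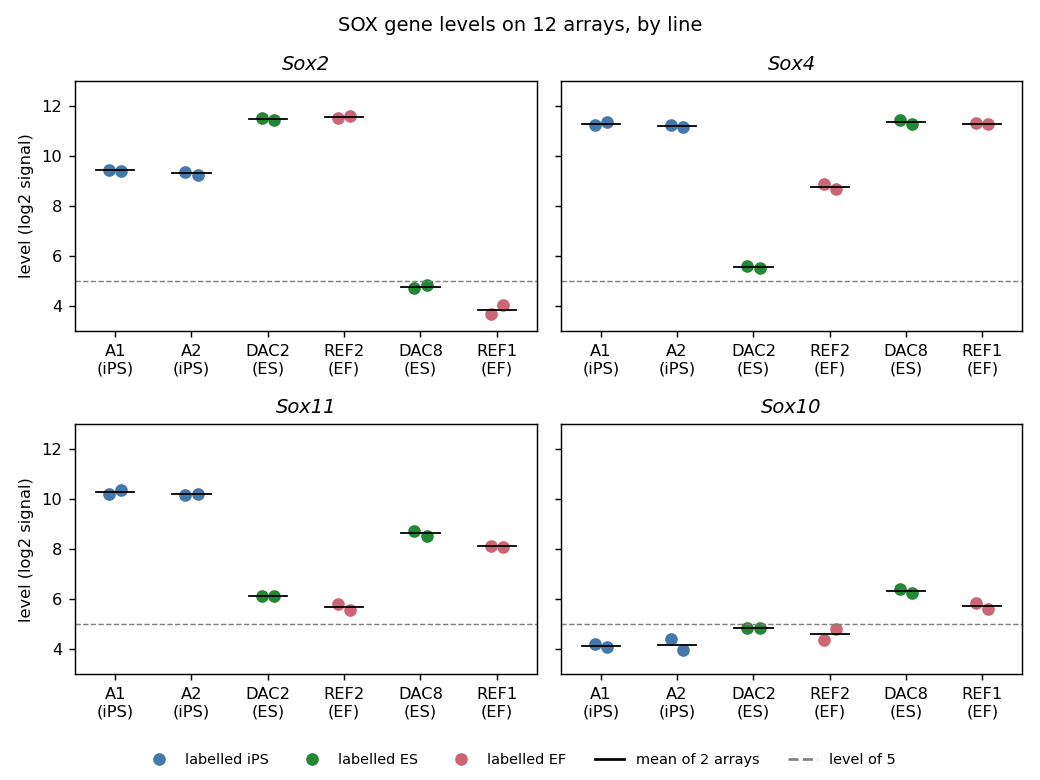
Log2 signal of Sox2, Sox4, Sox11 and Sox10 on each of the 12 arrays (vertical axis) by line (horizontal axis), with a point per array coloured by labelled cell type, a bar at the mean of 2 arrays and a dashed line at 5. Sox2 spans 3.86 to 11.57 between line means, and Sox10 stays below 5 on every array except those labelled DAC8 and REF1.

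Differences between lines were tested with limma in 1 fit of the 6 lines, with Benjamini-Hochberg adjustment over 10510 genes. A gene is called where the adjusted p is under 0.05 and the difference is at least 1 log2 unit, which is 2-fold. All 4 genes entered the fit, and 40 of their 60 line differences were called. Between the 2 iPS lines 0 of the 4 genes were called, where 0.209% of all genes were, and 0 had an unadjusted p under 0.05. Between DAC8 and REF1 0 of the 4 were called, where 1.24% of genes were, although 3 passed the adjusted p alone. Between DAC2 and REF2 1 of the 4 was called, Sox4, where 3.9% of genes were.

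The iPS lines differed from DAC2 and REF2 in Sox2, Sox4 and Sox11. These 3 were called for A1 against DAC2 (29.9% of all genes called), A1 against REF2 (30.5%), A2 against DAC2 (30.2%) and A2 against REF2 (31%). Against DAC8 and REF1 the 3 genes called were Sox2, Sox10 and Sox11. That held for A1 against DAC8 (31.7%), A1 against REF1 (32.6%), A2 against DAC8 (31.8%) and A2 against REF1 (32.6%). All 4 genes were called for DAC2 against DAC8 (39.6%), REF2 against DAC8 (39%) and REF2 against REF1 (39.5%), and 3 for DAC2 against REF1 (40.3%). With about 3 in 10 to 4 in 10 of all genes called in these 12 comparisons, a call on its own places a gene in a large class, and the sizes below carry the description. Over the 15 comparisons together 1 gene difference of 2-fold or more missed the adjusted p, so the counts of calls are set almost wholly by the 2-fold size.

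Sox2, a core factor of pluripotent and neural stem cells, gave 9.46 and 9.40 on the A1 arrays and 9.36 and 9.25 on those of A2. It gave 11.52 and 11.44 in DAC2, and 11.53 and 11.60 in REF2. The arrays labelled DAC8 gave 4.73 and 4.85, and those of REF1 gave 3.67 and 4.05. DAC2 and REF2 are the high pair, the iPS lines lie between, and no array of 1 of these 3 levels overlaps another. The label of DAC8 records Sox2 as positive, as do those of A1, A2 and DAC2.

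The order of the Sox2 line means was REF2 at 11.57, DAC2 at 11.48, A1 at 9.43, A2 at 9.31, DAC8 at 4.79 and REF1 at 3.86. REF2 and DAC2 did not pass the test of their difference (DAC2 minus REF2 -0.09 ± 0.11 SE, limma adjusted p = 0.539), nor did A1 and A2 (0.12 ± 0.11, adjusted p = 0.707). A1 was lower than DAC2 by 2.05 ± 0.11 (adjusted p = 1.29e-07), and A2 was lower than REF2 by 2.26 ± 0.11 (adjusted p = 5.9e-08). A1 was higher than REF1 by 5.56 ± 0.11 (adjusted p = 1.61e-10), but REF1 lies under 5 on this probe set, where a signal is not shown to be above background, and the size of that difference is not settled. The same difference was 2.98 ± 0.09 on 1381874_at, where REF1 is at 5.69, and 4.33 ± 0.13 on 1375153_at. That 1381874_at is above 5 on all 12 arrays does not show its signal in REF1 to be above background.

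DAC8 and REF1 differed in Sox2 by 0.92 ± 0.11 (adjusted p = 0.000705), short of 2-fold, and without replicate 2 of REF1 the difference was 1.11 and was called. Both lie under 5 on this probe set, and the other 2 probe sets that follow the gene gave -0.04 and -0.05 for DAC8 minus REF1. Those 2 placed the lines in the same 3 levels, with other distances between them. Over the 6 line means 1381874_at correlated with the representative set at r = 0.982 and 1375153_at at r = 0.992. The fourth, 1389826_at, stayed between 2.45 and 3.45 on every array, and none of its line differences was called. Its line means were highest in DAC2 at 3.25 and REF2 at 2.81, with 2.48 to 2.55 in the other lines. All are under 5, where a signal is not shown to be above background.

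**Figure D2:**
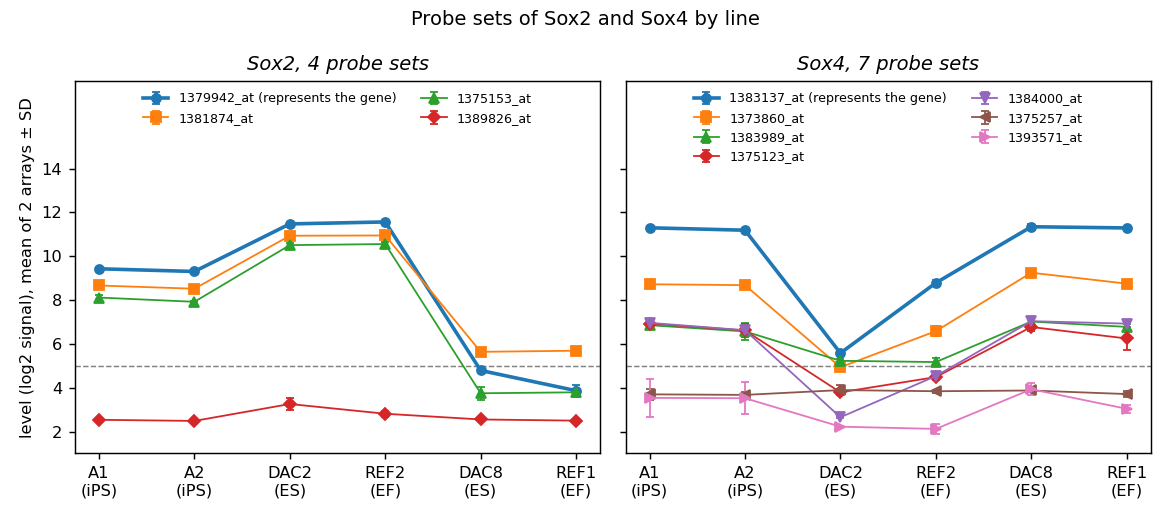
Mean log2 signal of 2 arrays, with the SD as bars, for the 4 probe sets of Sox2 and the 7 of Sox4 by line, with the representative set as the thick curve and a dashed line at 5. The Sox2 sets other than 1389826_at fall together in DAC8 and REF1, while the curves of Sox4 differ in how far REF2 lies from DAC2, with 5.58 and 8.78 on the representative set and 5.23 and 5.17 on 1383989_at.

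Sox4, a SOXC factor of neural and mesenchymal cells, gave 11.25 and 11.35 in A1 and 11.23 and 11.15 in A2. It gave 11.43 and 11.27 in DAC8, and 11.30 and 11.28 in REF1. All 8 of these arrays lie between 11.15 and 11.43, and none of the 6 differences among them was called. DAC2 gave 5.62 and 5.54, and REF2 gave 8.89 and 8.67, each apart from all other lines.

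By line mean the order for Sox4 was DAC8 at 11.35, A1 at 11.30, REF1 at 11.29, A2 at 11.19, REF2 at 8.78 and DAC2 at 5.58. A1 minus REF1 was 0.01 ± 0.09 (adjusted p = 0.94) and A2 minus DAC8 was -0.16 ± 0.09 (adjusted p = 0.115). Some other Sox4 probe sets, in a limma fit of all 20832 probe sets with 1 gene, passed the adjusted p short of 2-fold. On 1373860_at A1 minus DAC8 was -0.53 (adjusted p = 0.00447) and A2 minus DAC8 -0.57 (adjusted p = 0.00288). On 1384000_at A2 minus DAC8 was -0.41 (adjusted p = 0.0036) and A2 minus REF1 -0.30 (adjusted p = 0.0195). On 1375123_at A1 minus REF1 was 0.68 (adjusted p = 0.0287), in the other direction. A1 was higher than REF2 by 2.52 ± 0.09 (adjusted p = 4.77e-09) and higher than DAC2 by 5.72 ± 0.09 (adjusted p = 5.52e-11).

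Sox4 was the 1 member that parted DAC2 from REF2, the lines with the ES markers. DAC2 was lower by 3.21 ± 0.09 on the log2 scale (adjusted p = 3.4e-08), a 9.22-fold difference, and Sox4 ranked 13 of the 303 genes called lower in DAC2 than in REF2. The size depends on the probe set. In a fit of all 20832 probe sets with 1 gene, DAC2 minus REF2 was -1.65 ± 0.12 for 1373860_at and -1.88 ± 0.09 for 1384000_at, both called. In 1384000_at both lines lie under 5, at 2.65 and 4.53, and 1373860_at is at 4.93 in DAC2, so neither gives a size. The difference was -0.70 ± 0.23 for 1375123_at (adjusted p = 0.0517), again with both lines under 5, and 0.06 ± 0.18 for 1383989_at (adjusted p = 0.845). The last 2 sets, 1375257_at and 1393571_at, stayed under 5 on all 12 arrays. Only the representative set has both lines above 5 and a called difference, and 1383989_at, the other set above 5 in both, at 5.23 in DAC2 and 5.17 in REF2, showed none.

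Sox11, the other SOXC factor measured, gave 10.21 and 10.37 in A1 and 10.18 and 10.22 in A2. DAC8 gave 8.75 and 8.54, and REF1 gave 8.15 and 8.11. DAC2 gave 6.12 and 6.14, and REF2 gave 5.82 and 5.56. The iPS arrays are all above the others, the lines with fibroblast markers follow, and the lines with ES markers are lowest, with no overlap between these 3 levels.

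The Sox11 line means ran from A1 at 10.29 and A2 at 10.20 through DAC8 at 8.64 and REF1 at 8.13 to DAC2 at 6.13 and REF2 at 5.69. A1 was higher than DAC2 by 4.16 ± 0.10 (adjusted p = 5.11e-10), than REF2 by 4.60 ± 0.10 (adjusted p = 3.03e-10) and than REF1 by 2.16 ± 0.10 (adjusted p = 3.27e-08). DAC8 was higher than REF1 by 0.52 ± 0.10 (adjusted p = 0.00705), and DAC2 was higher than REF2 by 0.44 ± 0.10 (adjusted p = 0.0059). Both passed the adjusted p and stayed short of 2-fold. Sox4 and Sox11 thus had the same low lines, DAC2 and REF2. Sox11 was called between the iPS lines and DAC8 and REF1, and Sox4 was not. The medians of the neuronal markers ran in a like order to Sox11, at 9.95 and 10.03 in A1 and A2, 6.32 in DAC8, 6.28 in REF1, 4.64 in DAC2 and 5.16 in REF2, and their part in the Sox11 differences was not tested.

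Sox10, a factor of neural crest and its glia, gave 6.41 and 6.26 in DAC8 and 5.86 and 5.60 in REF1. It gave 4.22 and 4.09 in A1, 4.40 and 3.98 in A2, 4.85 and 4.87 in DAC2, and 4.40 and 4.81 in REF2. The first 2 lines lie above all other arrays, and the remaining 4 are below 5, where a signal is not shown to be above background. Differences against them are therefore read as direction more than as size. Among those 4 the widest was A1 minus DAC2, at -0.70 ± 0.17 (adjusted p = 0.00333), short of 2-fold.

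The highest Sox10 mean was 6.33 in DAC8, followed by 5.73 in REF1, and these differed by 0.60 ± 0.17 (adjusted p = 0.033), short of 2-fold. A1 was lower than DAC8 by 2.18 ± 0.17 (adjusted p = 1.25e-06) and lower than REF1 by 1.58 ± 0.17 (adjusted p = 1.31e-05). REF2 minus REF1 was -1.13 ± 0.17 (adjusted p = 0.000131), a call that was lost without replicate 1 of REF2 (-0.92) or replicate 1 of REF1 (-0.997). DAC2 minus REF1 was -0.87 ± 0.17 (adjusted p = 0.000763), which was short of 2-fold and was called at -1.0047 without replicate 2 of REF1. Of 7 measured neural crest and Schwann cell markers, 5 reached a signal of 5 in DAC8 and 4 in REF1, against 2 or 3 in the other lines, with list medians of 5.30 in both and 4.40 to 4.82 elsewhere. The list's mean did not part the lines in this way, at 5.76 in A1 and 5.72 in REF1. Tfap2b was higher in A1 and A2, at 9.72 and 9.82, than in DAC8 and REF1, at 5.22 and 5.30, and Ets1 was at 9.64 in A1 and 9.51 in REF1. Erbb3 and Foxd3, 2 of its defining markers, stayed under 5 in all 6 lines. Their part in the Sox10 difference was not tested.

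**Figure D3:**
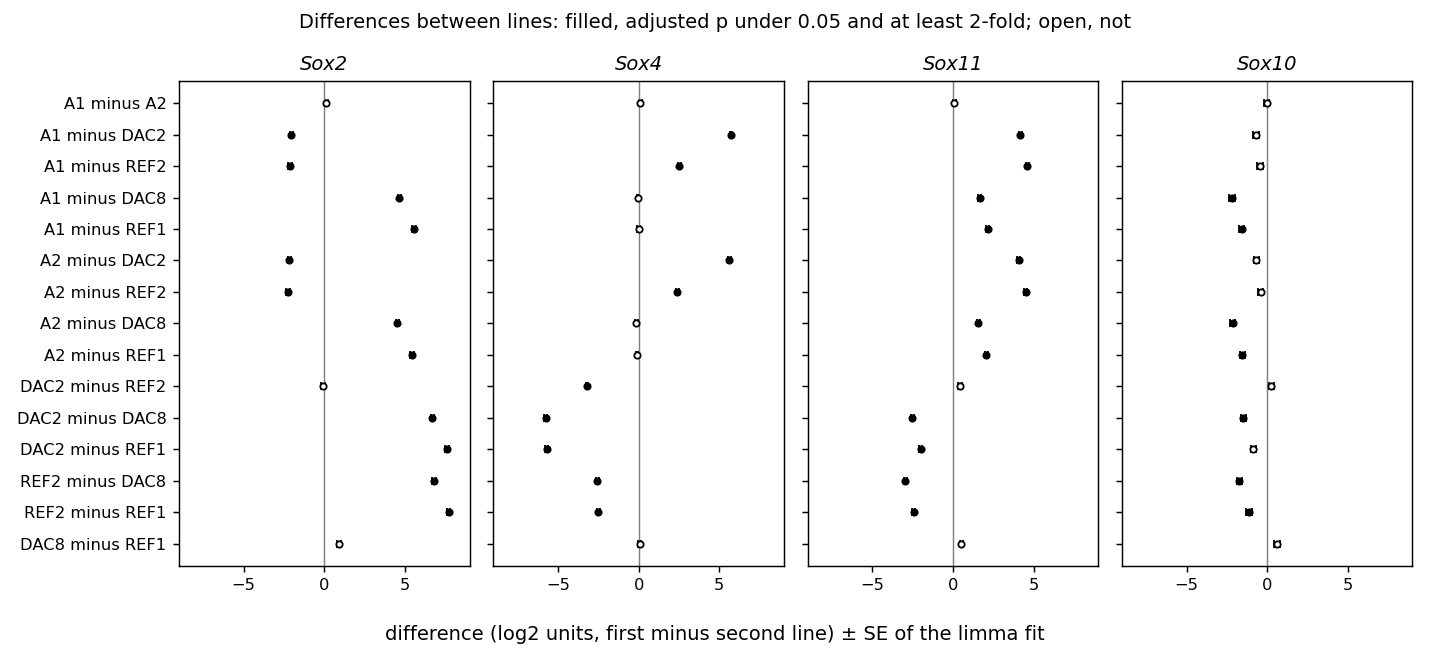
Difference in log2 signal for each of the 15 pairs of lines and each of the 4 genes, first line minus second, with the standard error from limma as bars, which are about as wide as the points. Filled points are called and open points are not: all 4 are open in A1 minus A2 and in DAC8 minus REF1, and in DAC2 minus REF2 Sox4 alone is filled.

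The 4 genes ordered the lines in different ways. Over the 6 line means, which share the same arrays, Sox4 and Sox11 correlated at r = 0.774, Sox2 and Sox10 at r = -0.785, and Sox2 and Sox4 at r = -0.662. The other 3 pairs lay between -0.358 and 0.172. With 6 lines that fall into a few levels, these values are descriptions.

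No difference between cell types as labelled was called for the 4 genes, although every iPS array was above all others in Sox11. On line means, with 2 lines per cell type, 0 of 12 differences were called by limma, and 1 had an unadjusted p under 0.05. Sox2 in iPS minus ES was 1.24 ± 3.46 (adjusted p = 0.905), since the 2 lines labelled ES lay 6.69 apart. Sox4 in iPS minus ES was 2.78 ± 2.14 (adjusted p = 0.66). Sox11 came nearest, at 3.34 ± 1.20 in iPS minus EF (adjusted p = 0.304, unadjusted p = 0.0451, and adjusted p = 0.0485, called, with line as a random block), and Sox10 in iPS minus ES was -1.42 ± 0.66 (adjusted p = 0.442). The random block is only an alternative, because in an earlier analysis it called too readily on simulated arrays. Of all genes, 2.46% were called in iPS minus ES, 2.78% in iPS minus EF and 0% in ES minus EF, where 25 genes had an unadjusted p under 0.05.

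The cell types were also fitted without the arrays labelled DAC8 and REF2, which were chosen because they went against their labels in these same data. That fit has 1 line each for ES and EF and 1 residual degree of freedom. Its spread is that between A1 and A2 alone, and it assumes that the ES and EF lines vary as the iPS lines do. Calls from it therefore measure no spread between ES lines or between EF lines. The iPS lines were then lower than DAC2 in Sox2 by 2.11 and higher in Sox11 by 4.12. The shares of all genes called were 29.8% in iPS minus ES, 32.5% in iPS minus EF and 40.2% in ES minus EF. The direction of Sox2 in iPS minus ES is thus opposite with and without these arrays.

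Of 14 other SOX genes listed, 10 were on the array, and all 10 were counted in a fit of the 14218 genes without a filter on low signals. Differences of single genes, here and for the target lists below, are from the fit of the 10510 genes kept, unless stated otherwise. Where a line compared lies under 5, the size of the difference is not settled. That holds for the differences given for Sox15, Sox17, Sox21, Neurog1, Dcx, Col9a1 and Egr2. In A1 against DAC2, 3 were called higher and 2 lower, where 13.2% of all genes were called higher and 10.6% lower. Against REF1, A1 had 4 higher and 0 lower (13.1% and 13.2% of all genes), and DAC2 had 3 higher and 0 lower than REF1 (15.9% and 16.8%). The median over the 10 was 0.35 for A1 minus DAC2, beside -0.14 over all genes, and 0.87 for A1 minus REF1, beside 0.04. Without replicate 1 of REF1, REF2 minus REF1 had 4 higher and 1 lower in place of 3 and 0. Sox1, Sox7 and Sox12 stayed under 5 on all arrays.

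Sox13, a SOXD gene, was highest in the iPS lines, with line means of 8.94 in A1 and 9.13 in A2 against 5.31 to 6.50 in the other 4. A1 exceeded DAC2 by 2.44 ± 0.13 (adjusted p = 1.28e-07). Sox6, another SOXD gene, had 5.35 and 5.82 in A1 and A2 and 2.43 to 3.53 elsewhere, and its second probe set stayed at 2.20 to 2.90. Sox15 set other lines apart, with 7.28 in DAC2, 7.70 in REF2 and 3.34 to 3.84 in the other lines, and DAC2 exceeded REF1 by 3.80 ± 0.18 (adjusted p = 3.61e-08).

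Sox17, an endoderm factor, parted DAC2 from REF2 as Sox4 did. Its line means were 6.15 in A1, 6.60 in A2, 5.30 in REF2 and 2.52 in DAC2, with 1.81 in DAC8 and 1.79 in REF1. DAC2 minus REF2 was -2.78 ± 0.13 (adjusted p = 1.12e-06), while the other 2 Sox17 probe sets stayed under 5 throughout. Sox21, a SOXB2 gene, is given from the fit without the filter, which it did not pass because DAC2 is averaged with DAC8 under the ES label and REF2 with REF1 under the EF label. Its means were 6.09 in DAC2, 6.14 in REF2 and 3.16 to 4.19 in the other lines, and DAC2 exceeded REF1 by 2.81 ± 0.13 (adjusted p = 3.9e-08).

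**Figure D4:**
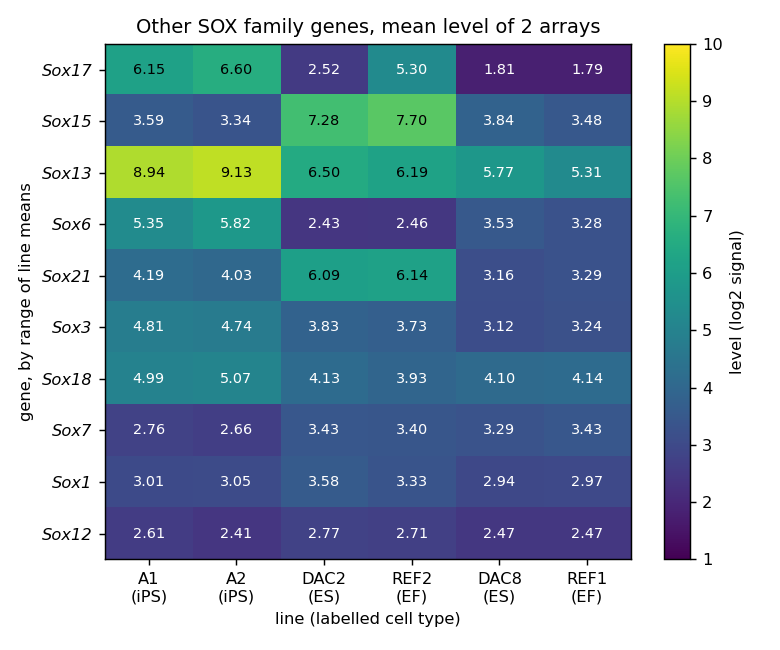
Heat map of the mean log2 signal of 2 arrays for the 10 other SOX genes on the array (rows, by range of line means) in the 6 lines (columns), with the value printed in each cell. Sox13 and Sox6 are highest in A1 and A2, Sox15 and Sox21 in DAC2 and REF2, and Sox17 is low in DAC2, DAC8 and REF1.

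Genes known as targets or partners of SOX factors were counted next in the same way, over every list member on the array, from lists taken from general knowledge. Each of these lists shares genes with the marker lists of cell types. Counts are given as ranges over the 4 comparisons of each iPS line with DAC2 and REF2, over the 4 with DAC8 and REF1, and over the 4 of DAC2 and REF2 with DAC8 and REF1. Of all genes, 12.5% to 13.2% were called higher and 10.6% to 12.2% lower in the first set of comparisons, 12.5% to 13.1% and 13.2% to 13.4% in the second, and 15.6% to 16.5% and 15.7% to 16.8% in the third.

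Of 8 pluripotency genes linked to SOX2, 4 were on the array. The iPS lines had 0 higher and 1 to 3 lower than DAC2 and REF2, 1 higher and 0 lower than DAC8 and REF1, and DAC2 and REF2 had 2 to 3 higher and 0 lower than DAC8 and REF1. In A1 minus DAC2 the count of 1 became 2 without replicate 1 of A1 or replicate 2 of DAC2. The counts that became 2 from 1 elsewhere were A2 minus DAC2 and A2 minus REF1, without replicate 1 of A2. Sall4, a zinc finger factor of pluripotent cells, had line means of 10.82 in DAC2 and 10.43 in REF2, 8.22 and 8.25 in the iPS lines, and 3.29 and 3.55 in DAC8 and REF1. It fell into the same 3 levels of lines as Sox2, and A1 was lower than DAC2 by 2.60 ± 0.16 (adjusted p = 3.33e-07). Sall4 is also among the ES markers given above. Nr5a2, a nuclear receptor, differed within the pair with ES markers, with 5.23 in DAC2 and 6.96 in REF2 (-1.73 ± 0.24, adjusted p = 0.000399).

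Of 12 neural genes, 11 were on the array. Pax6, Nes, Tubb3, Dcx, Neurog1 and Neurog2 are also in the neuronal and neural progenitor marker list above, so these counts are not separate from it. The iPS lines had 6 to 8 higher and 0 lower than DAC2 and REF2, beside 12.5% to 13.2% higher among all genes, with list medians of 1.13 to 2.22. They had 7 higher and 0 lower than DAC8 and REF1 (medians 2.07 to 2.33), while DAC2 and REF2 had 1 to 2 higher and 1 to 2 lower than DAC8 and REF1 (medians -0.08 to 0.20). Neurog1, a proneural factor, had 9.70 and 9.72 in A1 and A2 and 4.04 to 4.58 in the other 4 lines, with A1 minus DAC2 at 5.12 ± 0.10 (adjusted p = 1.59e-10). Pax6, a neural progenitor factor, had 7.33 and 7.76 in A1 and A2 and 2.15 to 2.37 elsewhere. Between DAC2 and REF2 2 neural genes were called, both lower in DAC2, named here after their values were seen: Dcx at -2.11 ± 0.08 and Prox1 at -1.31 ± 0.16, the latter at -0.59 and not called when probe sets were averaged.

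Of 12 cartilage genes linked to SOX9, 10 were on the array. The iPS lines had 3 to 4 higher and 0 lower than DAC2 and REF2, and 2 higher and 3 to 4 lower than DAC8 and REF1. DAC2 and REF2 had 0 higher and 3 to 5 lower than DAC8 and REF1, beside 15.7% to 16.8% lower among all genes. The list medians in these sets of comparisons, in that order, were -0.19 to 0.07, -0.65 to -0.30 and -0.71 to -0.63. Without replicate 1 of REF1 the count of 3 lower in DAC2 and in REF2 against REF1 became 5, and without replicate 1 of A1 the 3 higher and 0 lower in A1 minus DAC2 became 4 and 1. The members moved apart: Col11a1, a fibrillar collagen chain, was highest in REF1 at 11.56 and DAC8 at 11.06, while Col9a1, a cartilage collagen chain, was highest in A2 at 9.18 and A1 at 8.66. A1 minus REF1 was -4.85 ± 0.14 for Col11a1 (adjusted p = 1.28e-09), and A1 minus DAC2 was 5.52 ± 0.17 for Col9a1 (adjusted p = 2.85e-09).

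Of 16 crest, glia and melanocyte genes linked to SOX10, 11 were on the array. The iPS lines had 2 to 3 higher and 1 to 2 lower than DAC2 and REF2, and 0 to 1 higher and 0 to 1 lower than DAC8 and REF1. DAC2 and REF2 had 1 higher and 2 lower than DAC8 and REF1. In A1 minus REF1 the count of 0 became 1 without either array of A1 or replicate 1 of REF1. Mitf, the melanocyte regulator, was highest in DAC2 and REF2 at 10.79 each and lay between 5.48 and 5.81 elsewhere, so it was not high in the lines where Sox10 was. Egr2, a factor of myelinating Schwann cells, had 6.45 in DAC8 and 6.17 in REF1. It was 5.25 in A1 and 3.83 in A2, a difference of 1.42 ± 0.12 (adjusted p = 0.000667) that had an adjusted p = 0.0507 when those lines were fitted alone.

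The genes whose 6 line means were most like each member are given with Pearson's r over those 6 values, among 3107 tested genes with a range of at least 2 log2 units. For Sox2 they were Tfam (r = 0.9987), Paip2b (0.9986), Top2a (0.9986), Ccnb1 (0.9984) and Gins1 (0.9982). For Sox4 they were Slc25a4 (0.9983), Inppl1 (0.9938), Pdgfra (0.9872), Cib2 (0.9867) and Septin10 (0.9855). For Sox10 they were Fabp3 (0.9969), Clec2d (0.9935), Pln (0.9915), Rcan1 (0.989) and Pkp2 (0.9871). For Sox11 they were Tmod2 (0.9983), Irak1bp1 (0.9974), Zfp280c (0.9971), Camkmt (0.997) and Rgmb (0.9963). With 6 points in a few levels, values this high are reached by the best of many genes.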

How the data were processed

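The authors deposited log2 signals of 31099 probe sets for 12 arrays; the submitters' processing notes list RMA and Partek 6.2, with no order. RMA summarises background-corrected, normalized probes and compresses the differences of dim genes. The deposited range, 1.45 to 14.12, was left as it was. Of the probe sets, 20832 name 1 gene in the platform table, 436 several and 9831 none. A gene was represented by its probe set with the highest mean, and a gene was kept if 1 cell type had a mean of at least 5, which left 10510. Lines were tested with limma 3.58.1 in R 4.3.3 (6 residual degrees of freedom) and labelled cell types on line means (3). The cell type fit without DAC8 and REF2 has 1 residual degree of freedom. The code was tested on simulated data. The number of arrays limits the precision.

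Members and lists were chosen with earlier results of these data known. Named beside the members are other SOX genes spanning 2 log2 units, the 2 genes per target list with the widest range, and the 5 genes most like each member. Target lists were counted over all members on the array without the filter, a choice made after seeing the data. Alternatives were another scaling, filter, probe set rule or block, and leaving out arrays or lines. The 4 members' gene IDs were matched to the GRCr8 RefSeq table.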

Additional observations from a re-analysis of the deposited data

Results flagged for a closer look

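The iPS-minus-ES difference of each member depended on which line labelled ES was used, and the iPS-minus-EF difference on which line labelled EF was used. In each case the difference between the 2 lines of 1 label was itself called by limma. For Sox2, DAC2 minus DAC8 was 6.69 and REF2 minus REF1 was 7.70, with DAC8 and REF1 under 5, so these sizes are not settled. For Sox4 these were -5.77 and -2.51, for Sox11 -2.52 and -2.44, and for Sox10 -1.47 and -1.13. The Sox10 value for REF2 minus REF1 was not called without replicate 1 of either line.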

How the results depend on the processing

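Of the 60 line differences of the members, 40 were called, and 39 to 42 when an array was left out, 33 with the filter at 6, which leaves out Sox10, and 40 under every other setting run for lines. Reversals were limited to uncalled differences near 0. Sox4 A1 minus DAC8 was 0.0444 after quantile normalization (-0.1266 to 0.0316 leaving out arrays), Sox4 A1 minus REF1 was -0.033 with equal medians (-0.0385 to 0.0531), Sox4 A2 minus REF1 was 0.0193 and Sox2 DAC2 minus REF2 was 0.0732 with probe sets averaged. Leaving out arrays, Sox10 A1 minus A2 lay between -0.2418 and 0.1773 and Sox4 DAC8 minus REF1 between -0.0243 and 0.1338. A1 against A2 gave 22 genes, and 12 with those lines fitted alone.

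Replicate numbers did not pair the samples: same-numbered deviations correlated at -0.08 to 0.242, over 0.1 in 3 of 15 pairs of lines. With the replicate block between lines, 40 member differences were again called. For cell types, line as a random block called 509 genes in iPS minus ES, 561 in iPS minus EF and 1 member difference (Sox11 iPS minus EF, limma adjusted p = 0.0485). The replicate block with it called 477 and 502 genes. A fit of 12 arrays without a block called 1504, 1562 and, in ES minus EF, 2 genes, with 3 member differences. That fit takes the 2 arrays of a line as separate samples of a cell type, although their correlation in the random block fit was 0.966. Its counts therefore do not measure the spread between lines. In an earlier analysis the random line block called too readily on simulated arrays, so its calls are given as an alternative only. Leaving out a line gave 0 to 109 genes in iPS minus ES (259 with all lines) and 0 to 96 in iPS minus EF (292).

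Leaving out a line, iPS minus ES ran from -2.1097 to 4.5807 for Sox2 and -0.1029 to 5.6655 for Sox4. For iPS minus EF the values were -2.1995 to 5.5029 and -0.0481 to 2.4603. For ES minus EF they were -3.435 to 4.2674 for Sox2, -4.4594 to 1.309 for Sox4, -0.3072 to 1.1661 for Sox10 and -0.7809 to 1.7354 for Sox11. Without DAC8 and REF2, 3134, 3421 and 4225 genes and 9 member differences were called, and Sox2 iPS minus ES (-2.11), Sox4 iPS minus EF (-0.0481), Sox10 ES minus EF (-0.8721) and Sox11 ES minus EF (-2.00) changed sign. The fit without DAC8 and REF2 has 1 residual degree of freedom, from the spread between A1 and A2. Its counts therefore do not measure the spread between ES lines or between EF lines. With the filter, 5 of the 10 other SOX genes remain and their median is 2.44 for A1 minus DAC2, beside 0.35 over the 10. Apart from the arrays, lines or genes left out, the cause was not tested. Signals under 5, as for Sox10 in 4 lines, limit what a difference shows.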

Other observations

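Marker lists of further cell types had low medians in most lines. Of 10 measured oligodendrocyte and glia markers, 0 to 3 reached a log2 signal of 5 in any line, with list medians of 3.52 to 4.11, and Olig1, Olig2, Mbp, Mag, Mog and Gfap stayed under 5 in all 6 lines. Others of the list were higher in some lines: Pdgfra lay between 9.15 and 9.50 in A1, A2, DAC8 and REF1, Cspg4 was at 8.84 in DAC8 and 9.01 in REF1, and Fabp7 was at 6.998 in A1 and 6.78 in A2. The 6 chondrocyte markers had medians of 3.48 to 4.59, but some were higher in some lines. Acan was at 7.12 in DAC8 and 8.30 in REF1, and Col2a1 at 5.99 in DAC8 and 6.63 in REF1. Col9a1 was at 8.66 in A1 and 9.18 in A2, while Comp, Matn1 and Hapln1 stayed under 5 in all 6 lines. The 6 endoderm markers had medians of 3.61 to 5.05, the highest being REF2. The endoderm list includes Sox17, at 5.30 in REF2 and 2.52 in DAC2, so it is not separate from the Sox17 values above. The 5 melanocyte markers had medians of 5.33 in DAC2 and 6.65 in REF2, against 3.39 to 3.65 in the other 4 lines. Mitf, Pmel and Mlana were higher in DAC2 and REF2 than elsewhere. Dct, at 3.36 to 3.61, and Tyr, at 3.12 to 3.40, stayed under 5 in all 6 lines.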
